A study of Mus musculus with 8 samples.

Results

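The 10 genes described here carry the response of liver cells to unfolded protein in the endoplasmic reticulum (ER) and to shortage of amino acids: Atf4, Atf5, Ddit3, Trib3, Asns, Fgf21, Xbp1, Hspa5, Herpud1 and Creb3l3. They were taken by name, as 10 of the 17164 genes in the deposited table, and all 10 were among the 11606 genes that passed the filter on low values (FPKM, or reads per length of gene and size of library, no less than 1 in 2 or more libraries). The RNA came from whole livers of male C57BL/6 mice, 24 animals in 4 groups of 6, killed at 22 weeks of age, and 2 livers per group, picked at random, were sequenced. Control mice were given saline at 2 weeks of age. Model mice were injected with diethylnitrosamine (DEN, 0.67%), a DNA-alkylating liver carcinogen, at 2 weeks, and from 8 weeks to the end with carbon tetrachloride (CCl4, 20% in olive oil), which damages hepatocytes and drives fibrosis. DWYG-M and DWYG-H mice received the same DEN and CCl4 and were also treated from 17 weeks with DWYG (Diwu Yanggan capsules, which are herbal), at 1 or 2 multiples of the clinical equivalent dose. CCl4 thus went on during treatment in all groups but control, and what control mice received in its place is not given in the labels. With 2 livers a group, p-values measure the spread between these samples only.

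Cells read trouble in protein synthesis through a small set of sensors. PERK, at the ER membrane, and GCN2, which senses uncharged tRNA, phosphorylate the translation factor eIF2, which slows protein synthesis while favouring translation of the transcription factors ATF4 and ATF5; ATF4 then switches on amino acid transporters, asparagine synthetase, CHOP (encoded by Ddit3) and the pseudokinase TRIB3, which feeds back on ATF4. IRE1 splices Xbp1 mRNA, and ATF6 is cut out of the Golgi membrane; both raise ER chaperones such as BiP (Hspa5) and the ER-associated degradation factor HERP (Herpud1). CREB3L3, a hepatocyte factor cut in the same way as ATF6, controls lipoprotein and iron genes, and with other inputs the hormone gene Fgf21. Gene-level read totals of Atf4, Atf5 and Xbp1 hold no reading of translation or splicing.

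The promoter sequences below are shown because they hold the letters through which the 2 arms are known to act. All 10 genes matched RefSeq promoters (GRCm38.p6, 12 promoters, since 2 genes had 2 each), which run from 250 bases before to 50 after the transcription start. Both strands were searched for the ER stress element (ERSE, CCAAT and CCACG separated by 9 bases), its short form ERSE-II (ATTGG, 1 base of any kind, CCACG), the unfolded protein response element (UPRE, TGACGTGG), the C/EBP-ATF response element (CARE, TGATGNAA, where N is any base) and the cAMP response element (CRE, TGACGTCA). ERSE and ERSE-II are read by ATF6 and XBP1 with NF-Y, and CARE by ATF4 with a C/EBP partner. Capitals mark the match in each stretch, which is printed 5′ to 3′ on the strand of the gene.
Hspa5: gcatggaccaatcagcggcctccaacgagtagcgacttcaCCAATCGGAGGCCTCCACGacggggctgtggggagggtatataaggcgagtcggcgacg
Herpud1: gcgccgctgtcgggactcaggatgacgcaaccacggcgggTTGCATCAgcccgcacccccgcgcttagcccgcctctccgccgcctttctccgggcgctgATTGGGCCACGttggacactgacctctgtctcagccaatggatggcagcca
Asns: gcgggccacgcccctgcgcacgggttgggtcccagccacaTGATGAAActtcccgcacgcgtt
Fgf21: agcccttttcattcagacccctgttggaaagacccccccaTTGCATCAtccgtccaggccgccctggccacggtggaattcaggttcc

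The Hspa5 stretch (chr2:34771985-34772083, plus strand) held the only ERSE among the 10 genes, 65 bases before the start. The Herpud1 stretch (chr8:94386277-94386427, plus strand) held the only ERSE-II, 52 bases before the start, and further upstream a CARE on the opposite strand. The Asns stretch (chr6:7693210-7693272, minus strand) held a CARE 23 bases before the start, and the Fgf21 stretch (chr7:45615582-45615669, minus strand) one on the opposite strand 139 bases before it. The Trib3 promoter had a CARE match on the opposite strand, TTACATCA, 15 bases after the start (chr2:152344039-152344046, minus strand). In all, 4 genes held a CARE, 1 an ERSE, 1 an ERSE-II, 0 a UPRE and 0 a CRE. Of 32851 promoters of the same length, 3.97% held a CARE, 0.119% an ERSE, 0.0365% an ERSE-II, 0.676% a UPRE and 1.79% a CRE. A match describes letters only, and no match says only that they are not in this window.

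Libraries held between 17345627 and 19191382 expected counts. Hepatocyte markers were high in every library, with a summed FPKM of 62900 to 96800 over 7 genes such as albumin and transthyretin. Cholangiocyte and stellate cell markers were higher in the model libraries: 6 of 6 cholangiocyte markers were measured, with summed FPKM of 318 and 456 in model, 38.4 and 41.3 in control and 184 to 278 in the DWYG groups, and 8 of 8 stellate cell markers, with 127 and 207, 17.7 and 22.3, and 68.7 to 83.0. Endothelial markers, 4 of 4 measured, were not, with 102 and 73.4 in model and 84.0 and 75.1 in control. None of these markers was at 0. The cholangiocyte sum was mostly Spp1 (293 and 430 in model, 38.4 and 33.7 in control, 175 to 268 in the DWYG groups). Krt19 had 10.1 and 8.54 in model, 0.37 and 1.53 in control and 1.48 to 2.78 in the DWYG groups. Epcam had 6.83 and 7.25, 0.83 and 0.93, and 1.47 to 2.94. In bulk liver a change in the number of cells of one type and a change in RNA per cell cannot be told apart.

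By mean FPKM over the 8 libraries, a scale on which genes can be compared per length, the order was Hspa5 (639), Herpud1 (190), Atf5 (167), Creb3l3 (140), Xbp1 (133), Atf4 (67.6), Ddit3 (19), Fgf21 (17.9), Asns (11.0) and Trib3 (8.12). Hspa5 lay at the 98.7th percentile of the genes tested and Trib3 at the 52.1st. Over the 8 libraries Hspa5 stood clear of the range of Herpud1. Every other pair of neighbours in this order overlapped in range, and the order within Herpud1, Atf5, Creb3l3 and Xbp1, or within Ddit3, Fgf21, Asns and Trib3, is not beyond their spread.

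**Figure D1:**
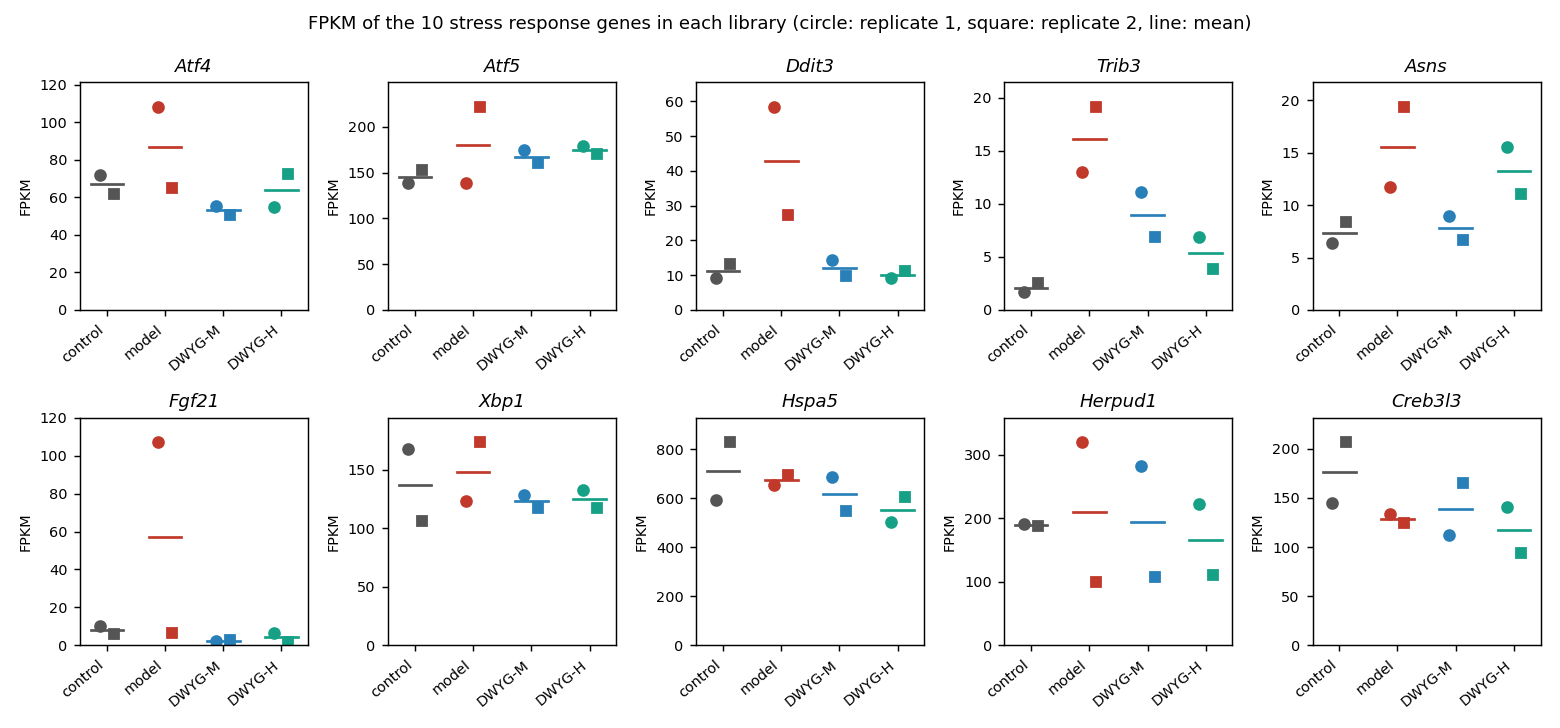
Each panel gives one gene, with FPKM on a linear axis from 0, the 4 groups along the horizontal axis, circles for replicate 1, squares for replicate 2 and a line at the mean. Trib3 and Ddit3 are higher in both model libraries than in both control libraries, Fgf21 stands at 107 in model replicate 1 alone, and Hspa5, Xbp1 and Atf5 overlap between model and control.

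The comparison of model with control asked which part of the response DEN and CCl4 had moved. Trib3 and Ddit3, which act downstream of ATF4, rose, and neither Atf4 itself nor the ER chaperone and degradation genes Hspa5 and Herpud1 passed the test. Of the 10 genes, 2 were called higher and 0 lower at an adjusted p under 0.05, against 22.2% of all genes tested (15.1% higher and 7.12% lower). A count of 2 in 10 is near that share and does not set the 10 genes apart from all genes. The median log2 fold change of the 10 genes was 0.07, and that of all genes tested −0.01.

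The transcription factor genes came first. Atf4 (Entrez 11911) had FPKM values of 72.1 and 62.0 in control and 108 and 65.1 in model. Only model replicate 1 stood above control, and the log2 fold change was 0.08 (SE 0.21, 95% interval −0.41 to 0.58, adjusted p = 0.814). Atf5 (Entrez 107503), a close relative of Atf4 that is abundant in liver, had 138 and 153 in control and 139 and 222 in model. Here replicate 2 was the high model library, and the log2 fold change was 0.06 (SE 0.27, interval −0.57 to 0.69, adjusted p = 0.901).

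Ddit3 (Entrez 13198) encodes CHOP, the factor that turns prolonged ER stress toward cell death. Its FPKM was 9.11 and 13.4 in control and 58.5 and 27.3 in model. Both model libraries were above both control libraries. Ddit3 rose 2.80-fold (log2 1.49, SE 0.38, interval 0.60 to 2.37, adjusted p = 0.0290). Leaving out control replicate 1 ended that call (1.18, adjusted p = 0.148), as did leaving out control replicate 2 (1.83, adjusted p = 0.0697). The same held for model replicate 1 (0.92, adjusted p = 0.0931).

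Trib3 (Entrez 228775), whose product binds AKT and ATF4, was the clearest of the 10. Control livers had FPKM values of 1.66 and 2.51, and model livers 13.0 and 19.1. Trib3 rose 6.46-fold (log2 2.69, SE 0.43, interval 1.71 to 3.67, adjusted p = 0.00494). The call held under every alternative run and with each library left out (highest adjusted p = 0.0421). Cholangiocyte, stellate, tumour, neutrophil and macrophage markers were higher in the same libraries. Summed FPKM was 250 and 708 for 3 of 4 tumour markers in model, and 1.18 and 0.60 in control. For 5 neutrophil markers it was 185 and 53.1 in model, and 13.0 and 7.05 in control. For 10 Kupffer cell and macrophage markers, of which 2 had a log2 fold change below 0, it was 576 and 436, and 336 and 285. The part of these markers in the Trib3 result was not tested.

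Asns (Entrez 27053), asparagine synthetase, is a textbook ATF4 target, and its promoter carries the CARE printed above. It had FPKM values of 6.38 and 8.36 in control and 11.7 and 19.4 in model, without overlap. The log2 fold change of 0.82 (SE 0.34, interval 0.03 to 1.62) missed the threshold at adjusted p = 0.126. It passed on log2(FPKM + 1) values with limma (0.95, adjusted p = 0.0427), on TPM values with limma (1.27, adjusted p = 0.00920) and in edgeR without model replicate 1 (1.24, adjusted p = 0.0245). It was 0.29 (adjusted p = 0.577) without model replicate 2 and 0.59 (adjusted p = 0.413) without control replicate 1.

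Fgf21 (Entrez 56636) encodes a hormone that hepatocytes release in fasting and stress. It was 9.98 and 5.94 in control, 107 in model replicate 1 and 6.66 in model replicate 2. The difference from control lay in 1 library: replicate 1 was 16.1-fold above replicate 2 in FPKM. In TMM-scaled CPM it was 13.9-fold above, a gap that 0.0517% of the genes tested reached between the model libraries. The log2 fold change was 2.49 (SE 1.01, adjusted p = 0.117), and it was −0.39 without model replicate 1 and 3.39 (adjusted p = 0.00619) without model replicate 2.

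Some other fast-responding genes stood apart in the same model library. Immediate early genes, 8 of 8 measured, had a summed FPKM of 462 in model replicate 1 and 140 in model replicate 2, against 27.6 and 30.6 in control and 60.1 to 80.2 in the DWYG libraries. Atf3, a stress-induced relative of ATF4 on that list, had 123 and 7.71 in the model libraries. Fos, singled out after its values were seen, had 47.7 and 3.61. In the same way Chac1, a glutathione-degrading ATF4 target, had 21.5 and 1.79, and Gdf15, a stress cytokine, had 35.9 and 6.10. The part of this library in the Ddit3 and Fgf21 values is given by the values without it, above.

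The ER folding arm was read through Xbp1, Hspa5 and Herpud1. Xbp1 (Entrez 22433) had FPKM values of 167 and 106 in control and 123 and 174 in model, and the groups overlapped. Its log2 fold change was −0.12 (SE 0.27, interval −0.75 to 0.51, adjusted p = 0.792), and limma gave 0.13 on FPKM and 0.46 on TPM values. Hspa5 (Entrez 14828), the most abundant of the 10, had 594 and 828 in control and 654 and 694 in model. The model values lay between the control values. The log2 fold change was −0.35 (SE 0.27, interval −0.98 to 0.27, adjusted p = 0.394), and 0.27 on TPM values.

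Herpud1 (Entrez 64209) split by replicate rather than by group. Control livers had FPKM values of 192 and 187, and model livers 319.7 and 99.5. The log2 fold change was −0.17 (SE 0.58, interval −1.51 to 1.16, adjusted p = 0.862), and 0.24 on TPM values. Its interval is the widest of the 10 after that of Fgf21.

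Creb3l3 (Entrez 208677), the membrane-bound hepatocyte factor, ran the other way. Control livers had 145 and 207 and model livers 133 and 124, without overlap. The log2 fold change was −0.73 (SE 0.30, interval −1.42 to −0.03, adjusted p = 0.124), so it did not pass, and on TPM values it was −0.10.

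**Figure D2:**
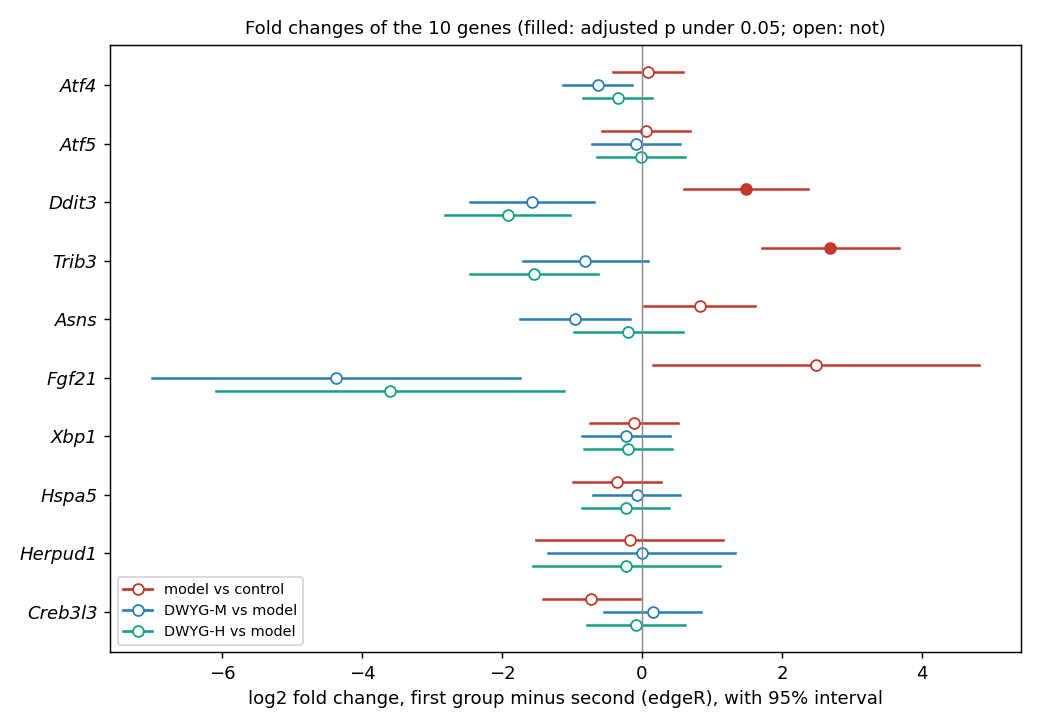
Log2 fold changes from edgeR on the horizontal axis with 95% intervals, for model against control (red), DWYG-M against model (blue) and DWYG-H against model (green); filled points passed an adjusted p of 0.05. Trib3 (2.69) and Ddit3 (1.49) in model against control are the 2 filled points, and the intervals of Fgf21 are the widest.

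Lists of other genes of these pathways were read beside the 10. Part of the list of ATF4 targets rose in model livers, among it genes of serine synthesis and amino acid transport. Whether ATF4 drove them was not tested. None of the ER chaperones passed as higher (8 did on TPM values). Among all 11606 genes tested, 1756 (15.1%) rose and 826 (7.12%) fell, and 5313 rose on TPM values. Of 28 tested ATF4 amino acid and stress targets (32 listed), 11 rose and 0 fell, 9 of the 11 being outside the 10 genes, with a median of 1.24. The count was 6 without control replicate 1 and 3 without control replicate 2, and 19 on TPM values.

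Slc1a4, a transporter of alanine, serine and cysteine, had FPKM values of 1.81 and 1.47 in control and 10.1 and 15.4 in model, and gained 2.71 in log2 units (SE 0.29, adjusted p = 0.00143). Slc7a11, the cystine importer, had 0.65 and 0.57 in control and 10.1 and 3.92 in model, and rose by 3.25 (SE 0.40, adjusted p = 0.00208). Both calls held with each library left out. Psat1, an enzyme of serine synthesis, rose by 4.32 (SE 0.71, adjusted p = 0.00574; 0.0563 without control replicate 2), from 0.90 and 0.75 to 13.4 and 25.4. Nupr1, a small stress-induced chromatin protein, rose by 2.49 (SE 0.45, adjusted p = 0.00797; 0.0670 without control replicate 2).

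The other 5 called genes of the list, named after their values were seen, were Phgdh, the first enzyme of serine synthesis (4.79), Sesn2, a leucine sensor (1.49), mitochondrial Pck2 (1.89), Gdf15 (3.17) and Atf3 (5.73). Sesn2 lost its call without control replicate 2, and the other 4 lost it without either control library (highest adjusted p = 0.0878 for Sesn2, 0.0995 for Phgdh, 0.0928 for Pck2, 0.120 for Gdf15 and 0.0809 for Atf3).

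Of 22 ER chaperones and folding enzymes, 0 rose and 2 fell, with a median of −0.14 (0.13 on FPKM values, and 0.46 on TPM values, where 8 rose). The 2 were Cnpy2 (−0.48, adjusted p = 0.0339) and the oxidase Ero1b (−0.85, adjusted p = 0.0452). Of 19 ER-associated degradation genes, 0 rose and 2 fell, Derl2 (−0.68) among them, with a median of −0.12 (0.14 on FPKM values, and 0.46 on TPM values, where 9 rose). Of 19 sensors and regulators, among them the kinases Eif2ak3 and Ern1, 0 rose and 0 fell, with 3 at an unadjusted p under 0.05 (1 fell in DESeq2 and 5 rose on TPM values).

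Of 20 cytosolic aminoacyl-tRNA synthetases, which charge tRNA and include ATF4 targets, 1 rose, Vars (0.89, adjusted p = 0.0338), and 1 fell, Mars1 (−0.73, adjusted p = 0.0155), with a median of −0.05 (0.51 on TPM values, where 10 rose). Of 20 genes of ER translocation and export, Kdelr3 rose (4.45, adjusted p = 0.0192) and Sec62 fell (−0.54, adjusted p = 0.0378), and on TPM values 15 rose. Of 12 genes of the mitochondrial unfolded protein response, a programme in which ATF5 takes part, 0 rose and 3 fell, Clpp (−0.65), Dnaja3 (−0.57) and Trap1 (−0.60), with a median of −0.39 (0.18 on TPM values, where 2 rose). None of the 7 lower calls named here (Cnpy2, Ero1b, Derl2, Mars1, Clpp, Dnaja3 and Trap1) passed on FPKM or TPM values, nor did that of Sec62. The median of all genes was 0.50 on the TPM scale and 0.21 to 0.25 on the FPKM scale, against −0.01 in edgeR. Each of these calls, with those of Vars and Kdelr3, was lost without control replicate 2 and without model replicate 2.

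The list around CREB3 factors and FGF21 had 18 tested genes, of which 5 rose and 1 fell, with a median of 0.50 (9 rose on TPM values, and 2 without control replicate 1 or without control replicate 2). Creb3l1, a relative of Creb3l3 known from matrix-secreting cells, had FPKM values of 0.37 and 0.50 in control and 2.12 and 2.00 in model, and rose by 1.96 (SE 0.33, adjusted p = 0.00638; 0.0493 at most with a library left out). Apcs, serum amyloid P and a target of CREB3L3 in the acute phase response, rose by 2.27 (SE 0.27, adjusted p = 0.00181). Apoc2, an activator of lipoprotein lipase, rose by 2.53 (adjusted p = 0.0130), and Hamp, the iron hormone hepcidin, fell by 2.23 (adjusted p = 0.0257). The Apoc2 and Hamp calls were lost without either control library, and that of Hamp also without model replicate 2. Both directions thus stood side by side among genes known to respond to CREB3L3, while Creb3l3 itself did not pass.

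**Figure D3:**
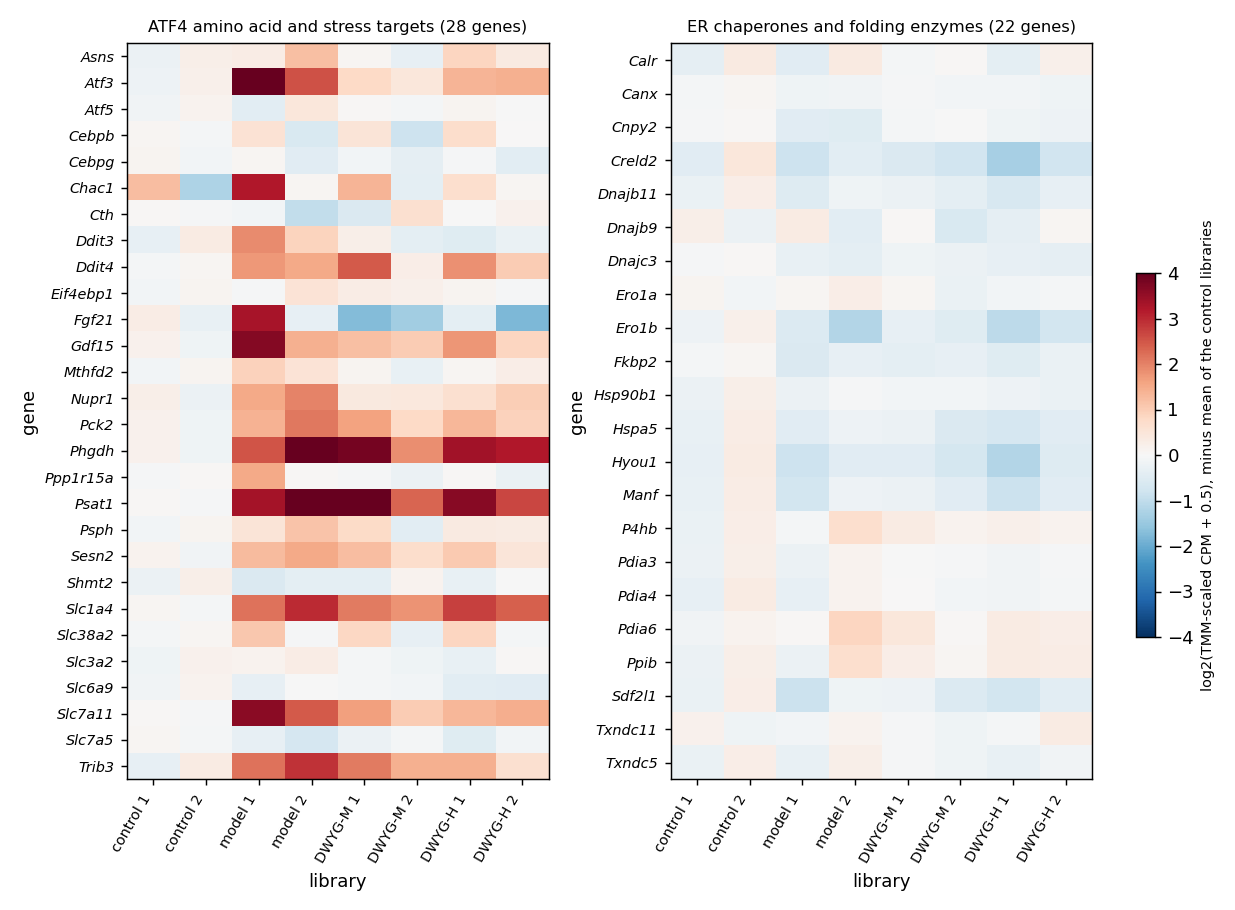
Heat maps of log2(TMM-scaled CPM + 0.5) minus the mean of the 2 control libraries, for 28 ATF4 targets (left) and 22 ER chaperones and folding enzymes (right), with genes down the side, the 8 libraries along the bottom, red for higher and blue for lower, and colours ending at 4 and −4. Slc1a4, Psat1, Phgdh and Trib3 are red in all 6 DEN and CCl4 libraries, Fgf21 is red in model replicate 1 alone, and the right panel has no strongly coloured cell.

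The comparison of each DWYG dose with model asked whether treatment had moved these genes during continued CCl4. With edgeR none of the 10 genes passed in either comparison, and DESeq2 called 2 in each, Ddit3 and Fgf21 in DWYG-M and Ddit3 and Trib3 in DWYG-H. Ddit3, Trib3 and Fgf21, the genes whose mean stood furthest above control in model livers, had lower values in all 4 DWYG libraries than in both model libraries. Picking genes for high model values favours in advance a fall against those same libraries. How many of all genes separate in this way was not counted. Over all genes, edgeR called 0.00862% in DWYG-M against model (1 gene, with 1468 at an unadjusted p under 0.05) and 0.0% in DWYG-H against model (0 genes, with 985). DESeq2 called 206 and 120. In edgeR 0 of the 10 genes were called in each, 4 and 3 had an unadjusted p under 0.05, and the medians were −0.43 and −0.23 (−0.02 and −0.01 for all genes). Both doses are set against the same model libraries, and these also enter the comparison with control, so the 3 sets of values are not independent of one another.

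Ddit3 had FPKM values of 14.2 and 9.72 in DWYG-M livers and 9.07 and 11.1 in DWYG-H, near the control values of 9.11 and 13.4 and below the model values of 58.5 and 27.3. Against model the log2 fold change was −1.57 in DWYG-M (SE 0.38, interval −2.46 to −0.69, adjusted p = 0.231) and −1.92 in DWYG-H (SE 0.39, interval −2.82 to −1.03, adjusted p = 0.25). DESeq2 called both (adjusted p = 0.0104 and 0.000841). Without model replicate 1 edgeR gave −0.99 (adjusted p = 0.197) and −1.34 (adjusted p = 0.159).

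Trib3 had 11.1 and 6.84 in DWYG-M livers and 6.83 and 3.89 in DWYG-H, between control and model. Against model it gave −0.81 in DWYG-M (SE 0.39, interval −1.70 to 0.08, adjusted p = 0.429) and −1.55 in DWYG-H (SE 0.40, interval −2.46 to −0.63, adjusted p = 0.351), the latter called by DESeq2 (adjusted p = 0.0210). Without model replicate 2 they were −0.39 (adjusted p = 0.738) and −1.12 (adjusted p = 0.628). The DWYG-H values lay below those of DWYG-M in FPKM, with 6.84 and 6.83 nearly touching, and overlapped them after TMM scaling. The edgeR test of DWYG-H against DWYG-M gave −0.74 (interval −1.65 to 0.18, unadjusted p = 0.1).

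Fgf21 was low under both doses, at 2.13 and 2.86 in DWYG-M livers and 6.54 and 1.99 in DWYG-H. The highest of these, 6.54, lay just under the lower model value of 6.66. Log2 fold changes of −4.37 (SE 1.14, adjusted p = 0.263) and −3.60 (SE 1.08, adjusted p = 0.433) against model depended on the model library kept. They were −1.47 (adjusted p = 0.272) and −0.70 (adjusted p = 0.595) without model replicate 1, and −5.27 (adjusted p = 0.0185) and −4.50 (adjusted p = 0.0389) without model replicate 2. DESeq2 called Fgf21 in DWYG-M (adjusted p = 0.0335) and not in DWYG-H (adjusted p = 0.168).

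Asns values did not overlap between the doses. The gene had 8.98 and 6.68 in DWYG-M, below both model libraries (11.7 and 19.4), and 15.5 and 11.1 in DWYG-H, overlapping them. Against model the log2 fold change was −0.96 in DWYG-M (SE 0.34, interval −1.75 to −0.17, adjusted p = 0.328) and −0.20 in DWYG-H (SE 0.34, interval −0.97 to 0.58, adjusted p = 0.935). The direct test of DWYG-H against DWYG-M gave 0.76 (SE 0.34, interval −0.03 to 1.56, unadjusted p = 0.0567 and adjusted p = 1.00).

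Atf4 had 55.6 and 50.6 in DWYG-M livers and 55.0 and 72.4 in DWYG-H. Both DWYG-M values were below the model values (108 and 65.1), and one DWYG-H value lay between them. The log2 fold changes against model were −0.63 (SE 0.21, interval −1.13 to −0.14, adjusted p = 0.310) and −0.35 (SE 0.21, interval −0.84 to 0.15, adjusted p = 0.715). Atf5 stayed close to 170 in all 4 DWYG libraries (174, 160.3, 179 and 170.0), inside the model range, with log2 fold changes of −0.08 (interval −0.71 to 0.55) and −0.02 (interval −0.65 to 0.61).

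The ER folding genes differed little from model on average. Xbp1 had FPKM values of 128 and 118 in DWYG-M livers and 133 and 117 in DWYG-H, with log2 fold changes of −0.23 (interval −0.86 to 0.40) and −0.20 (interval −0.83 to 0.43). Hspa5 had 686 and 549 in DWYG-M livers and 502 and 605 in DWYG-H, with −0.08 (interval −0.70 to 0.55) and −0.23 (interval −0.86 to 0.39). Both Hspa5 values in DWYG-H lay below both model values in FPKM, although not after TMM scaling. Creb3l3 had 112 and 165 in DWYG-M livers and 141 and 94.2 in DWYG-H, with 0.16 (interval −0.54 to 0.85) and −0.09 (interval −0.78 to 0.61). On the log2 scale the intervals of these 3 genes allow falls of up to about 0.9. They allow rises of up to 0.43 for Xbp1, 0.55 for Hspa5 and 0.85 for Creb3l3.

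Herpud1 again split by replicate number, with 281 and 108 in DWYG-M livers and 222 and 111 in DWYG-H. In FPKM replicate 1 was 3.21-fold above replicate 2 in model, 2.61-fold in DWYG-M livers and 2.00-fold in DWYG-H, but 1.02-fold in control. After TMM scaling of CPM the ratios were 2.80, 2.60, 2.04 and 0.938, and a gap as large as these, in either direction, was seen in 1.44%, 0.991% and 2.48% of genes tested in the 3 exposed groups and in 76.6% in control. The labels do not say that a replicate number marks a shared batch, day or litter. The log2 fold changes against model were −0.00 (interval −1.34 to 1.33) and −0.22 (interval −1.56 to 1.11).

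In edgeR the ATF4 target list held 0 called genes in either dose comparison, and in DESeq2 4 were called lower in each. Those 4 include Ddit3 and Fgf21 in DWYG-M and Ddit3 and Trib3 in DWYG-H, already given among the 10 genes. Over all genes DESeq2 called 206 and 120 in either direction. In edgeR 10 of 28 (23 of the 28 being outside the 10 genes) had an unadjusted p under 0.05 in each, against 1468 and 985 of all 11606 genes. The list medians were −0.57 and −0.48. Slc7a11, at 2.24 and 1.46 in DWYG-M livers and 1.83 and 2.05 in DWYG-H against 10.1 and 3.92 in model, gave −1.82 (SE 0.37, adjusted p = 0.213) and −1.78 (SE 0.37, adjusted p = 0.25). Nupr1 gave −1.83 (adjusted p = 0.213) and −1.20 (adjusted p = 0.472), and Atf3 −4.95 (adjusted p = 0.213) and −4.12 (adjusted p = 0.340). More genes of the list were called lower without model replicate 2. Those calls rest on model replicate 1 alone, the library in which Atf3 stood apart (123, against 7.71 in replicate 2). The medians of the ER chaperone list were 0.01 and −0.10, with 0 called.

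The high and medium doses were also set against each other. None of the 10 genes was called by edgeR or by DESeq2, and edgeR called 0.0% of all genes (193 had an unadjusted p under 0.05, and DESeq2 called 5). The median of the 10 genes was −0.07, with 5 above and 5 below 0, and 0 had an unadjusted p under 0.05. Intervals as wide as that of Asns above do not show that the doses acted alike.

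Each dose group was also set against control. Of the 10 log2 fold changes in edgeR, 9 were below 0 in DWYG-M and 7 in DWYG-H. Of all 11606 genes tested, 5900 and 5945 were below 0. Some of the 9 were small, such as Atf5 (−0.02) and Ddit3 (−0.09), and their sign depended on the scale. In mean FPKM, Atf5, Ddit3, Asns and Herpud1 stood above control in DWYG-M. Atf4, Fgf21, Xbp1, Hspa5 and Creb3l3 stood below it. The 7 in DWYG-H were below control in mean FPKM too. In DWYG-M, 4.95% of all genes were called, and of the 10 genes Trib3 alone: it was 1.88 higher on the log2 scale (SE 0.42, adjusted p = 0.0459). Leaving out control replicate 1 (1.56, adjusted p = 0.239), control replicate 2 (2.25, adjusted p = 0.138) or DWYG-M replicate 1 (1.49, adjusted p = 0.251) ended the call. In DWYG-H, 7.69% of all genes were called and 0 of the 10, of which 2 had an unadjusted p under 0.05. Trib3 gave 1.14 there (SE 0.43, adjusted p = 0.151; on TPM values 1.29, adjusted p = 0.0264).

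Creb3l3 gave −0.57 in DWYG-M (SE 0.30, adjusted p = 0.356) and −0.81 in DWYG-H (SE 0.30, adjusted p = 0.151) against control, beside −0.73 in model. Hspa5 gave −0.59 in DWYG-H (SE 0.27, adjusted p = 0.241), and Atf4 −0.55 in DWYG-M (SE 0.21, adjusted p = 0.216). None of these passed.

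Amino acid genes outside the 10 also stood apart from control under treatment. Of the 28 ATF4 targets, 3 were called higher in each dose group, against 505 (DWYG-M) and 765 (DWYG-H) of the 11606 genes tested. Slc1a4 had FPKM values of 8.44 and 6.84 in DWYG-M livers and 13.2 and 10.6 in DWYG-H, against 1.81 and 1.47 in control, and rose by 2.01 (adjusted p = 0.0107) and 2.65 (adjusted p = 0.00337). Psat1 had 19.6 and 5.88 in DWYG-M livers and 14.9 and 7.67 in DWYG-H, and rose by 3.74 (adjusted p = 0.0255) and 3.57 (adjusted p = 0.0233). The third was Trib3 in DWYG-M and Phgdh in DWYG-H (4.37, adjusted p = 0.0394). Each of these 6 calls was lost with a control library left out, that of Slc1a4 in DWYG-H without control replicate 2 only (adjusted p = 0.0542).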

How the data were processed

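Whole-liver RNA of 8 mice was sequenced from SMART-Seq mRNA LP libraries, per the labels' protocols. Genome build GRCm39 is named in the submitters' processing notes; for the aligner, the counter, the annotation and the use of strand the entry is: not given in the sources used here. Per the file headers, the table the authors deposited holds read counts, FPKM and TPM for each gene and library. The counts the authors deposited are read here like expected counts per gene: 89.8% to 91.5% per library were whole within 0.005, the rest had fractions, and all were rounded here. The authors' FPKM are scaled by gene length and library size, and the deposited TPM also by the total of scaled values.

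The 11606 genes at an FPKM of 1 or more in 2 or more libraries were tested with edgeR 4.0.16 (quasi-likelihood, TMM factors 0.848 to 1.15) in one model of 4 groups, with 4 residual degrees of freedom and a common dispersion of 0.0377. Adjusted p-values (Benjamini-Hochberg over all genes tested) come from edgeR where no other tool is named, and a call is an adjusted p under 0.05. Standard errors and 95% intervals came from the F statistic. The scripts were tested on simulated data. Alternatives were DESeq2 1.42.0, no filter, limma 3.58.1 on log2(FPKM + 1), log2(FPKM + 0.1) and log2(TPM + 1), only the 2 groups compared, a replicate block, and each library left out, run in R 4.3.3.

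The 10 genes, the other lists and the motifs were chosen with earlier results of these data known. Named genes are the 10 and, per list and comparison, up to 4 other tested genes with the smallest p. Promoter coordinates are RefSeq GRCm38.p6, not the authors' build. The values of 1 gene of these lists are not reported here.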

Additional observations from a re-analysis of the deposited data

How the results depend on the processing

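With 2 livers a group, 1 library decided many values. The number of the 10 genes called in model against control was 1 to 3 with a library left out, against 2. In DWYG-M against model and in DWYG-H against model DESeq2 called 2 each, and leaving out a library gave 0 to 1, against 0. In DWYG-M against control the count was 0 with the replicate block, 2 with only the 2 groups compared and 0 to 1 with a library left out, against 1, and in DWYG-H against control it was 2 on TPM values, against 0. Signs turned under other settings as follows: model against control, Xbp1 (0.13 on both FPKM scales, 0.46 on TPM), Hspa5 (0.27) and Herpud1 (0.24) on TPM; DWYG-M against model, Herpud1 (0.00 in DESeq2, 0.05 unfiltered, 0.01 with the replicate block, 0.12 with the crossed pairing); DWYG-H against model, Atf5 (0.01 unfiltered, 0.02 with the replicate block).

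With one library left out, log2 fold changes in model against control ran from −0.20 to 0.34 for Atf4, −0.44 to 0.45 for Atf5, −0.39 to 3.39 for Fgf21, −0.51 to 0.20 for Xbp1 and −1.08 to 0.39 for Herpud1. In DWYG-M against model they ran from −0.45 to 0.42 for Atf5, −0.54 to 0.16 for Xbp1, −0.24 to 0.08 for Hspa5, −0.85 to 0.92 for Herpud1 and −0.16 to 0.41 for Creb3l3. In DWYG-H against model they ran from −0.39 to 0.48 for Atf5, −0.59 to 0.34 for Asns, −0.51 to 0.19 for Xbp1, −0.81 to 0.70 for Herpud1 and −0.41 to 0.18 for Creb3l3. The cause of these shifts was not tested.

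Over all genes, model against control gave 2582 calls (68.0% higher), 5448 on TPM values (97.5% higher), 2696 and 2782 on FPKM values (91.7% and 92.1% higher) and 1669 with only the 2 groups compared (80.5% higher). DWYG-M and DWYG-H against control gave 575 and 892 calls, 1007 and 1385 in DESeq2 and 2820 and 3369 on TPM values. The labels do not say what a replicate number shares between groups. The differences between replicates 1 and 2 correlated between groups at −0.143 to 0.255, which cannot show whether a number marks a shared batch. The replicate block left the counts of the 10 genes as they were, except for Trib3 in DWYG-M against control (1.87, adjusted p = 0.0803); in model against control it left 3 higher calls of 5 in the CREB3 and FGF21 list. The crossed pairing of model and DWYG-M, chosen after seeing the data, gave 0 calls among the 10 genes and 1 over all genes, against 0 with the labelled block.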

Other observations

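Some other genes split by replicate number in the exposed groups, as Herpud1 did. They were singled out after their values were seen and are given as values only. Per1, a clock gene, had FPKM values of 0.41 and 1.28 in control, and replicate 1 stood above replicate 2 in model (6.31 and 2.16), DWYG-M (4.93 and 1.04) and DWYG-H (6.68 and 0.84). Slc38a2, a neutral amino acid transporter and ATF4 target, had 22.9 and 23.8 in control. It had 64.2 and 25.8 in model livers, 48.3 and 21.2 in DWYG-M livers and 48.9 and 25.9 in DWYG-H. Cebpb, an ATF4 partner, had 22.5 and 18.7, 39.3 and 15.01, 34.5 and 13.1, and 38.6 and 24.3. Dbp, a clock output gene, ran the other way in 3 groups, with 9.43 and 40.8 in control livers, 3.62 and 25.2 in model livers and 7.02 and 31.1 in DWYG-M, but 2.59 and 1.63 in DWYG-H.

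Plasma cells, which depend on Xbp1, were also read. Of 9 markers of B and plasma cells 6 were measured, with a summed FPKM of 9.97 and 4.24 in control livers, 25.6 and 24.4 in model livers, 18.9 and 23.0 in DWYG-M livers and 25.1 and 39.1 in DWYG-H. Tnfrsf17 was listed at 0 in 4 libraries. Xbp1 overlapped between all 4 groups in FPKM.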
